A study of Mus musculus with 4 samples.

Results

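The calcium entry, store and signalling genes are 37 genes that carry Ca2+ into the cytosol, store it, remove it or act directly on its signal. They are a list of names that uses no measured value as a criterion, although it was drawn up with earlier results of these data known, and they were matched exactly to the gene symbols of the deposited table. All 37 were found among the 25393 genes listed. The table holds RNA-seq of primary astrocytes from the cortex and hippocampus of C57BL/6 mice at postnatal day 1, with 2 libraries labelled wild-type (WT) and 2 labelled Tet1 knockout (KO). The KO mice carry a constitutive tet1-/- genotype, so the deletion is not restricted to astrocytes, and WT pups carry no deletion. All cultures were untreated. Each isolation pooled 2 mice, the cells grew for about 7 days and were purified by shaking at 260 rpm, and RNA was taken after a further 24 hours. The study calls its RNA-seq repeats biological and gives more of them per genotype than the 2 libraries in the table. Neither the study nor the labels tie each library to its own culture. The p-values therefore measure the spread between these libraries, which may be partly technical. The study measured Ca2+ responses of these astrocytes, and the comparison below asks which genes of the Ca2+ machinery differed in RNA level between the labels.

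In astrocytes, ATP and other transmitters bind receptors coupled to Gq and G11, which switch on phospholipase C. The IP3 it makes opens IP3 receptors in the endoplasmic reticulum, and Ca2+ leaves the store. STIM proteins sense the emptied store and open ORAI channels in the plasma membrane, SERCA pumps refill the store, and plasma membrane pumps and sodium-calcium exchangers push Ca2+ out of the cell. Stretch-gated, TRP and voltage-gated channels add further entry, and mitochondria take up Ca2+ through a uniporter.

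Each value is a read count over the size factor of its library, called a normalized count here. The reads on genes were 18749610 in WT replicate 1, 22673555 in WT replicate 2, 20702980 in labelled KO replicate 1 and 22403163 in labelled KO replicate 2. A count of 3 reads, taken as the floor of detection, corresponds to 2.70 to 3.21 normalized counts, and it covers counting error only. Levels of different genes were compared as FPKM, which corrects for gene length, computed from the recovered reads and the lengths in the table. Tet1 itself had 266 and 121 normalized counts in WT against 173 and 463 in the KO-labelled libraries. Tet1 was therefore not lower in them, although counts of the whole gene cannot show whether the deleted part was missing. For that reason they are called the KO-labelled libraries, and every direction below rests on the label. Gfap, the astrocyte filament gene, had 58004 and 67297 normalized counts in WT against 174853 and 9945 in the KO-labelled libraries.

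By FPKM, 23 of the 37 genes (62.2%) had a mean of at least 1 over the 4 libraries, against 51.2% of all genes listed, and 10 had at least 10. The highest was Atp2a2, which encodes the SERCA2 pump, with a mean of 75.1 FPKM, above 97.5% of listed genes. Gna11 (29.7), Atp2b4 (29.6), Gnaq (25.9) and Pkd2 (23.0) followed in mean FPKM. Their order is not fixed by these data, since Atp2b4 alone ran from 12.4 to 65.0 FPKM between libraries and Gnaq from 15.0 to 42.3. The ORAI channel genes Orai3 and Orai1 had means of 14.6 and 13.5 FPKM, within each other's spread. The mechanically gated channel gene Piezo1, at 14.5 FPKM, owed its mean to labelled KO replicate 2, with 28.9 against 9.16 to 10.5 in the other libraries. At the low end, 14 genes had a mean under 1 FPKM, among them the 3 ryanodine receptor genes, Atp2a3, Atp2b2, Slc8a3, Trpc6 and Trpa1. Trpa1, a channel for irritant chemicals, had 0 reads in both WT libraries and 1 read in each KO-labelled library, so it was not detectable at this depth and was not tested. The length of Slc8a1 in the table, 2934 bases, covers little of the 18807 bases of its exons in GENCODE M21, so its FPKM of 10.7 is uncertain. For Itpr3 the 2 lengths were 8990 and 9019 bases, and for the other 35 genes they were the same.

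**Figure D1:**
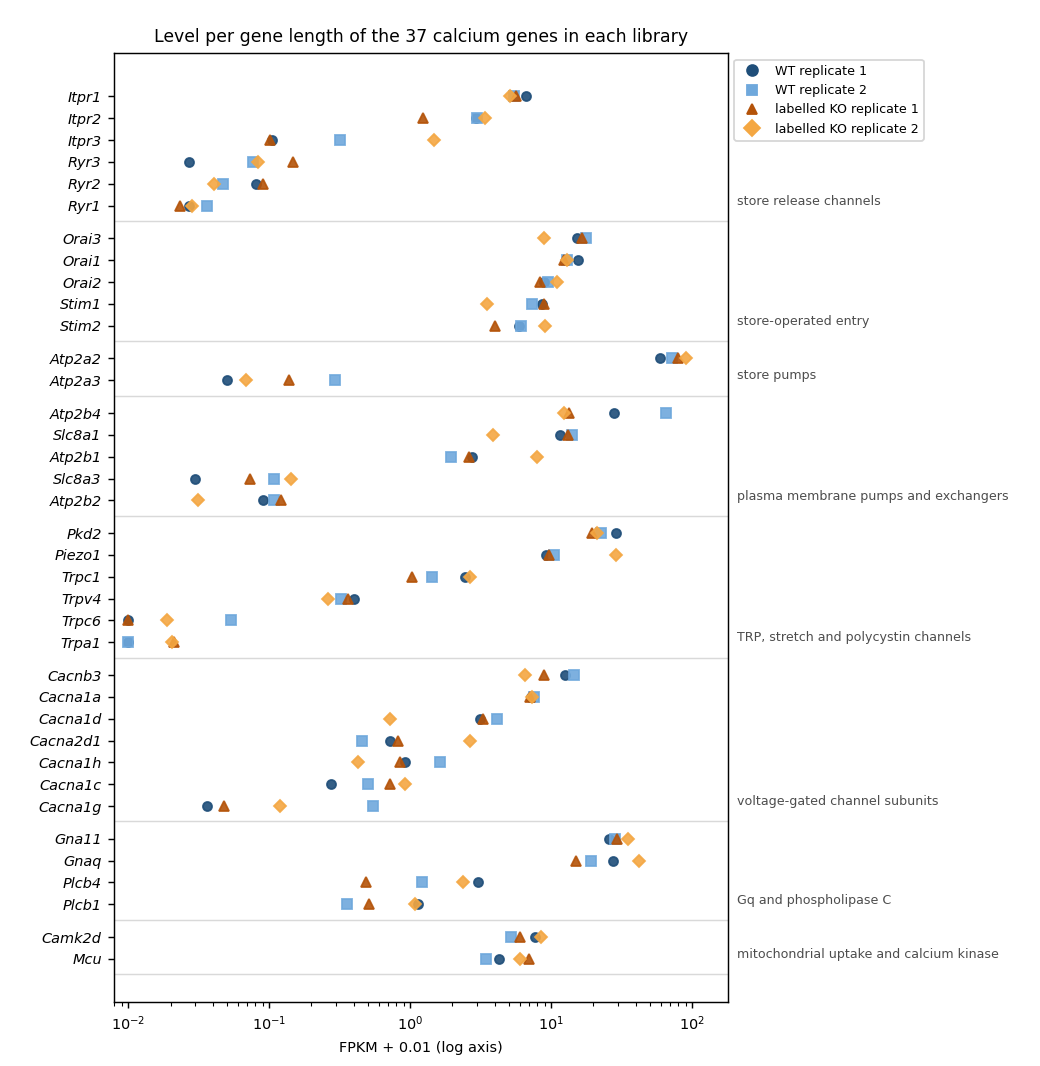
Level of each of the 37 calcium genes in each library, as FPKM plus 0.01 on a log axis, with the genes grouped by role and 1 symbol per library. Atp2a2 stands highest, with 59.0 to 90.2 FPKM, and labelled KO replicate 2 (diamonds) often lies away from the other 3 libraries.

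Between the labels, 2 of the 36 genes tested were higher in the KO-labelled libraries at an unadjusted p under 0.05 and 1 was lower (limma). The higher genes were Cacna1c, a pore subunit of L-type channels, and Mcu, the pore of the mitochondrial uniporter. The lower gene was Atp2b4, a plasma membrane Ca2+ pump. Over all 22094 genes tested, 4.54% were higher and 9.18% lower by the same criterion, so the counts among the calcium genes were near the background. After Benjamini-Hochberg adjustment in limma, 0 genes passed at 0.05 among the calcium genes and among all genes tested (0%), while 3032 of all genes had an unadjusted p under 0.05. edgeR on the recovered reads also gave 0 after adjustment, with 2733 at an unadjusted p under 0.05. The lowest adjusted p of a calcium gene was 0.268 in limma, for Atp2b4. DESeq2 on the same reads called 1 calcium gene lower, again Atp2b4 (adjusted p = 0.0284), and 0 higher, against 4.62% lower and 1.64% higher of the 17382 genes to which it gave an adjusted p. By unadjusted p, DESeq2 had 2 calcium genes higher and 1 lower under 0.05, against 4.61% higher and 7.95% lower of all genes tested. With 2 libraries per label, the smallest two-sided p of an exact permutation test is 0.333. The median log2 fold change of the 36 genes was -0.12, against -0.07 over all genes tested, with 17 above 0 and 19 below.

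**Figure D2:**
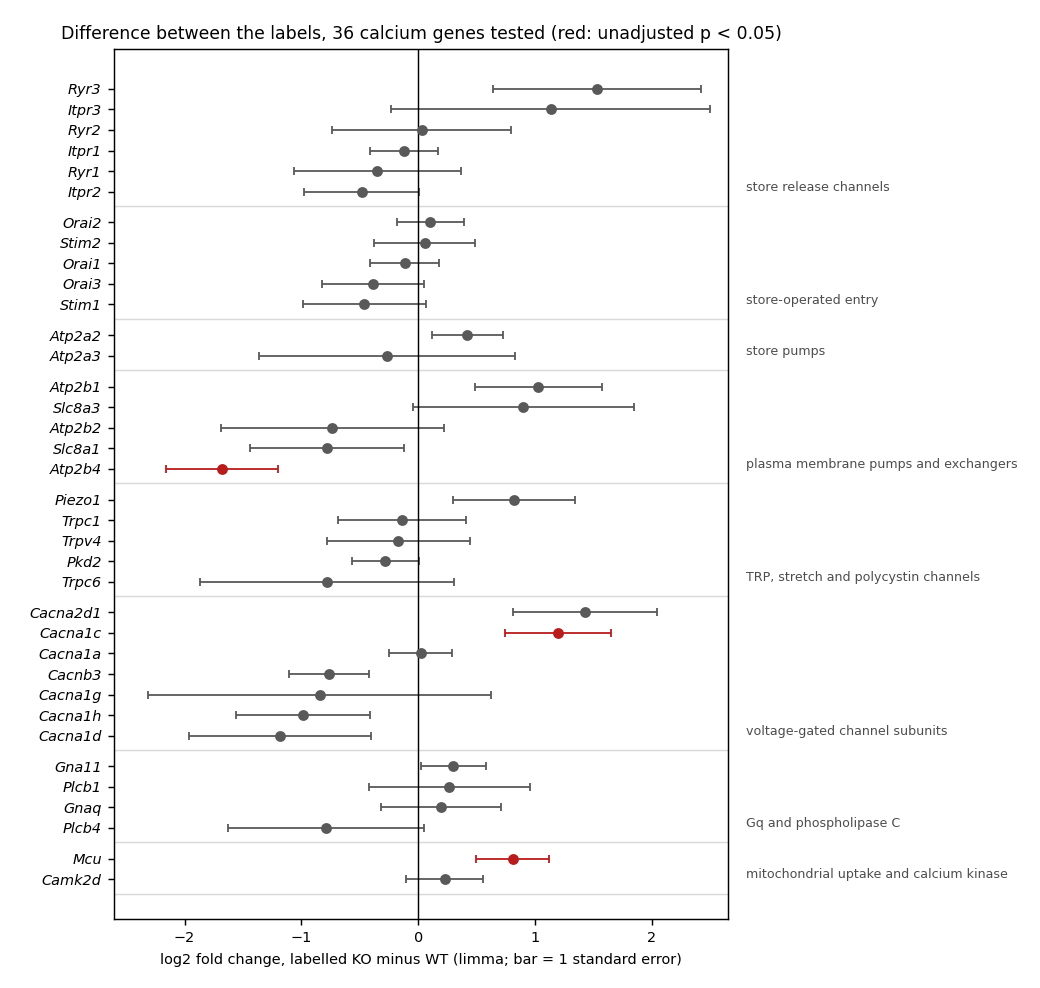
Log2 fold change of each of the 36 calcium genes tested, labelled KO minus WT, with points for the limma estimate and bars for 1 standard error, grouped by role. The 3 genes at an unadjusted p under 0.05, in red, are Atp2b4 at -1.68, Cacna1c at 1.20 and Mcu at 0.81, and most other bars reach or lie near 0.

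Both KO-labelled libraries lay above both WT libraries for 7 of the 36 genes, Ryr3, Atp2a2, Atp2b1, Cacna1c, Cacna2d1, Gna11 and Mcu, against 22.5% of all genes tested. Both lay below for 3, Atp2b4, Cacnb3 and Pkd2, against 25.4%. For the other 26 genes the labels overlapped.

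The plasma membrane pumps and exchangers held the largest difference with an unadjusted p under 0.05. Atp2b4 (ENSMUSG00000026463, chr1:133699457-133801041, minus strand, GRCm38), which encodes PMCA4, had 6835 and 16594 normalized counts in WT against 3614 and 3060 in the KO-labelled libraries. The labels did not overlap, and the WT libraries differed more from each other than the KO-labelled libraries did. The mean was 11714 ± 6900 (SD, n = 2) in WT against 3337 ± 391 (SD, n = 2) in the KO-labelled libraries. On the log2 scale the fold change was -1.68 (SE 0.48, adjusted p = 0.268 from limma), and edgeR gave -1.84 (adjusted p = 0.271). With 1 library left out it was -1.04 without WT replicate 2, at an unadjusted p of 0.0813 from limma, and -2.32 without WT replicate 1. Leaving out either KO-labelled library gave -1.80 and -1.56 with unadjusted p-values of 0.0847 and 0.0838 from limma. The transcript Gm37368, which overlaps Atp2b4 on the same strand, had at most 3.61 normalized counts in any library.

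Atp2b1, the gene for the widely expressed pump PMCA1, had 831 and 614 normalized counts in WT against 873 and 2434 in the KO-labelled libraries. Both KO-labelled libraries were above WT, but replicate 1 by little, and the log2 fold change of 1.03 had an unadjusted p of 0.113 (limma). Within the FPKM of the 3 listed pump genes, Atp2b4 made up 90.8% and 97.0% in WT and 83.1% and 60.9% in the KO-labelled libraries. The share of Atp2b1 was 8.89% and 2.89% in WT and 16.2% and 39.0% in the KO-labelled libraries. Summed over the 3 genes, the pumps had 30.7 and 67.0 FPKM in WT against 16.0 and 20.3 in the KO-labelled libraries. The labels did not overlap in that sum, and most of it was Atp2b4 in each library. Atp2b2, the pump PMCA2 known from neurons and hair cells, stayed between 5.41 and 31.0 normalized counts. Slc8a1, the sodium-calcium exchanger NCX1, had 682 and 859 normalized counts in WT against 864 and 228 in the KO-labelled libraries, so that its lower mean came from labelled KO replicate 2 alone. Slc8a3 (NCX3) had at most 14.4 normalized counts.

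Among the voltage-gated channel subunits, Cacna1c (ENSMUSG00000051331, chr6:118587240-119196418, minus strand), the pore of Cav1.2, had 113 and 217 normalized counts in WT against 333 and 390 in the KO-labelled libraries. Neither KO-labelled library reached down to the WT libraries, which themselves stood apart. The mean was 165 ± 73.5 (SD, n = 2) in WT against 362 ± 40.6 (SD, n = 2) in the KO-labelled libraries, with a log2 difference between the labels of 1.20 (standard error 0.45, unadjusted p = 0.0425, adjusted p = 0.355 from limma). Without WT replicate 1 the log2 fold change was 0.73 (unadjusted p = 0.226 from limma), and the gene passed an unadjusted p under 0.05 in 8 of the 14 settings tried. As a level, Cacna1c was low, with a mean of 0.595 FPKM. Dcp1b, which overlaps it on the opposite strand, had 431 and 349 normalized counts in WT against 302 and 206 in the KO-labelled libraries, the opposite order. Whether the counting used strand is not given in the sources used here, so reads of overlapping genes cannot be told apart.

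Cacna2d1, the alpha2delta-1 subunit that carries channels to the membrane, had 177 and 116 normalized counts in WT against 225 and 662 in the KO-labelled libraries. The labels did not overlap, but labelled KO replicate 1 lay close to WT. Its log2 fold change was 1.42 (standard error 0.61, unadjusted p = 0.0645 from limma), with an unadjusted p of 0.0492 in edgeR and 0.0180 in DESeq2, where the adjusted p was 0.170. Cacnb3 (ENSMUSG00000003352, chr15:98630840-98644529, plus strand), a cytoplasmic beta subunit and the subunit gene with the highest mean FPKM (10.6), had 1004 and 1210 normalized counts in WT. It had 791 and 533 in the KO-labelled libraries, both below WT, with a log2 difference between the labels of -0.76 (standard error 0.34, unadjusted p = 0.0704 from limma). Cacna1a, the pore of P/Q-type channels, was level over the 4 libraries, at 1648 to 1791 normalized counts, and its log2 fold change was 0.02 (standard error 0.27). Under equal sums, quantile normalization and edgeR, and without WT replicate 1 or labelled KO replicate 1, that value changed sign.

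Cacna1a also made up the largest share of the FPKM of the 9 listed alpha1 pore genes, 59.3% and 51.1% in WT and 57.4% and 74.0% in the KO-labelled libraries. The share of Cacna1c was 2.19% and 3.34% in WT and 5.74% and 9.20% in the KO-labelled libraries. Cacna1d (Cav1.3) held 25.9%, 27.9% and 26.5% in the 2 WT libraries and labelled KO replicate 1, and 7.17% in labelled KO replicate 2. Its normalized counts were 795 and 1080 in WT against 913 and 181 in the KO-labelled libraries. For the T-type pore genes the labels overlapped as well. Cacna1h (Cav3.2) had 179 and 327 normalized counts in WT against 181 and 82.0 in the KO-labelled libraries. Cacna1g (Cav3.1) had 5.33 and 113 in WT against 8.56 and 22.5 in the KO-labelled libraries, a spread between the WT libraries larger than any difference between the labels.

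Mcu (ENSMUSG00000009647, chr10:59446984-59616692, minus strand), through which mitochondria take up Ca2+, had 590 and 496 normalized counts in WT against 1070 and 837 in the KO-labelled libraries. The labels did not overlap, and the lower KO-labelled library lay clearly above the higher WT library. The mean was 543 ± 66.7 (SD, n = 2) in WT against 954 ± 165 (SD, n = 2) in the KO-labelled libraries, a log2 fold change of 0.81 (standard error 0.31, unadjusted p = 0.0466, adjusted p = 0.359 from limma). The unadjusted p was 0.0573 in edgeR and 0.0675 in DESeq2, and 0.191 in limma without WT replicate 2. The log2 fold change ran from 0.63 to 0.98 over the 14 settings, and the unadjusted p was under 0.05 in 6 of them. The overlapping antisense gene Gm10322 had at most 6.42 normalized counts. Camk2d, a chain of the Ca2+ and calmodulin dependent kinase CaMKII, had 3479 and 2423 normalized counts in WT against 3007 and 3837 in the KO-labelled libraries, overlapping ranges. Of the FPKM of the 4 CaMKII chain genes, Camk2d held 22.4% and 13.1% in WT and 18.3% and 23.6% in the KO-labelled libraries, and Camk2g held 37.6% and 33.6% in WT and 54.5% and 68.3% in the KO-labelled libraries, the largest share except in WT replicate 2, where Camk2a had 49.6%.

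**Figure D3:**
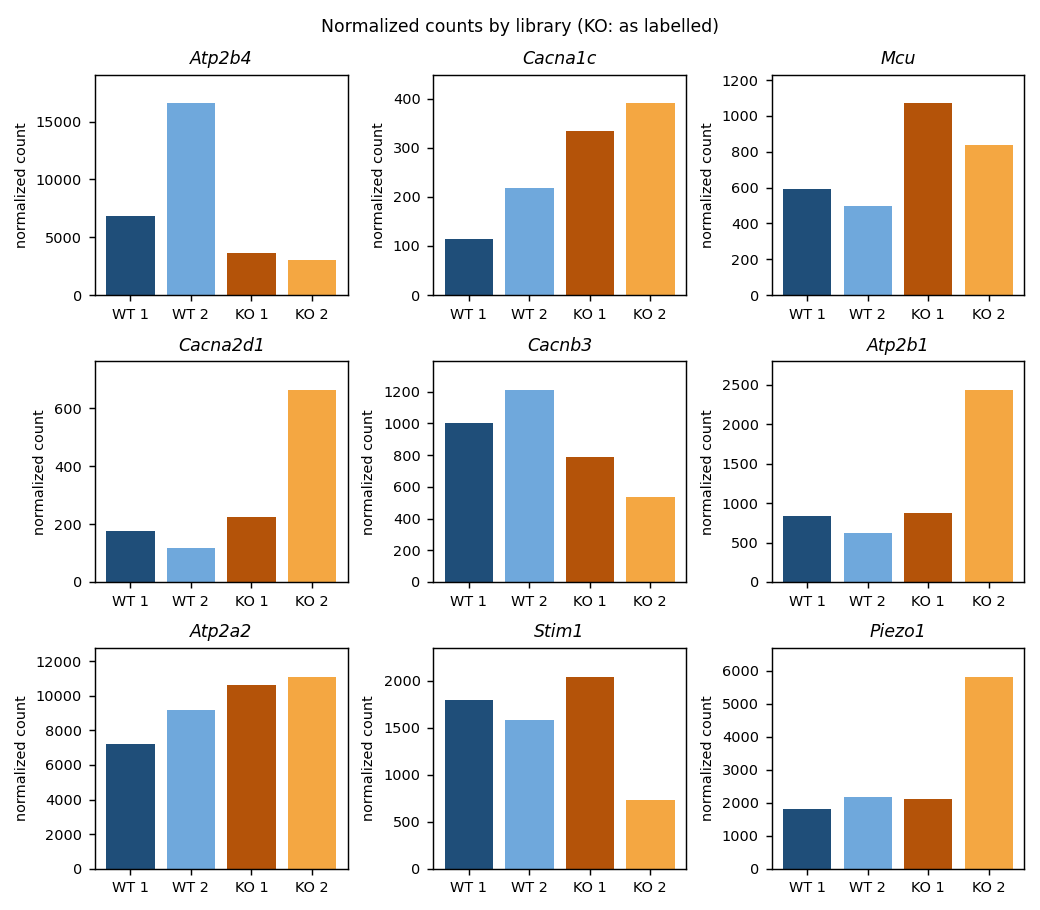
Normalized counts of 9 calcium genes in each library, 1 bar per library and each axis from 0. Atp2b4 is lower and Cacna1c and Mcu are higher in both KO-labelled libraries, whereas Atp2b1, Cacna2d1, Stim1 and Piezo1 stand apart mainly in labelled KO replicate 2 (Piezo1 at 5805 against 1820 to 2166).

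The stretches before RefSeq starts of the 3 genes with an unadjusted p under 0.05 are shown. TET1 acts on the C of CG pairs, and the stretches differ in how many they hold. They are RefSeq sequences of GRCm38.p6, from the windows of 250 bases before each start, without the bases that GENCODE M21 annotates as exon. All 3 genes lie on the minus strand, each run is written 5′ to 3′ toward the gene, and the capitals mark CG. The Atp2b4 run (chr1:133753750-133753997) holds 2 CG pairs in 248 bases. It is the only RefSeq start listed for Atp2b4 and lies 47.3 kb inside the gene's span, so a start further out is not shown. The Atp2b4 run ends in a pyrimidine-rich stretch and CAG next to an annotated exon, as an intron does. Its CG count therefore cannot be read as that of a promoter or set beside those of Mcu and Cacna1c. The Mcu run (chr10:59616693-59616942) holds 15 in 250 bases. The Cacna1c run (chr6:119108574-119108745) holds 32 in 172 bases and is the richest of 3 starts of that gene. It lies 87.9 kb inside the gene's span, and the other 2 windows hold 5 and 2 in 250 bases.
Atp2b4: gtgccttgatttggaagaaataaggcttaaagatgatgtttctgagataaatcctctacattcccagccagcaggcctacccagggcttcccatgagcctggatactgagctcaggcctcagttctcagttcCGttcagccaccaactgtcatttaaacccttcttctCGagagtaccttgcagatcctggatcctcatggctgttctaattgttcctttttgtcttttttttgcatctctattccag
Mcu: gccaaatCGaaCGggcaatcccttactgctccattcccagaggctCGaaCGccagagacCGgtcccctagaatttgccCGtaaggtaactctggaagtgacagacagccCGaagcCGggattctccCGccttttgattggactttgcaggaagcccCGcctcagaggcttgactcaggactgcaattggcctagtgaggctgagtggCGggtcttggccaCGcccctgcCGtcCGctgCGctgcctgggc
Cacna1c: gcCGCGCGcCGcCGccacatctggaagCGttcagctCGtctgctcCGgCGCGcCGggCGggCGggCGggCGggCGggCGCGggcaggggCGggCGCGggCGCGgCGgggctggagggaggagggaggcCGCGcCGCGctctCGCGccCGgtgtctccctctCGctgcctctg
A window was found for 30 of the 37 genes, 38 windows in all. Their median was 18.5 CG pairs per 250 bases, against 6 over the 32851 windows of all genes, whose quartiles were 2 and 16. Those windows were not restricted by gene type or level, so they are not a matched background for the calcium genes. The letters TGACGTCA are the palindromic core of the cAMP and Ca2+ response element, which reads the same on both strands. They were in 0 of the 38 windows of the calcium genes and in 1.55% of all windows. With so few windows, a count of 0 is near that share. Methylation was not analysed here, and the letters describe only these windows.

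The store pump Atp2a2 (ENSMUSG00000029467, chr5:122453513-122502225, minus strand) had 7179 and 9169 normalized counts in WT against 10634 and 11074 in the KO-labelled libraries. The labels did not overlap, but the difference, a log2 fold change of 0.42 (standard error 0.31, unadjusted p = 0.224 from limma), was close to the gap between the WT libraries. Atp2a2 made up more than 99% of the SERCA FPKM in each library. Atp2a3 (SERCA3), known from blood and endothelial cells, had 4.27 to 31.3 normalized counts.

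The release channels were mainly Itpr1 and Itpr2. Itpr1 (chr6:108213096-108551109, plus strand), the IP3 receptor best known from neurons, had 2447 and 2075 normalized counts in WT against 2280 and 1874 in the KO-labelled libraries. These ranges overlapped, with a log2 difference between the labels of -0.12 (standard error 0.29). Itpr2, the main IP3 receptor of astrocytes in the brain, had 864 and 924 normalized counts in WT against 404 and 1011 in the KO-labelled libraries. By FPKM, Itpr1 made up 68.9% and 62.2% of the 3 IP3 receptor genes in WT and 81.0% and 51.1% in the KO-labelled libraries. Itpr3 had 17.1 and 57.9 normalized counts in WT, 18.2 in labelled KO replicate 1 and 266 in labelled KO replicate 2, where its share of the family was 14.8%. The ryanodine receptors, which release Ca2+ in response to Ca2+ and are the main release channels of muscle, were all low. Ryr3 had 6.40 and 26.7 normalized counts in WT against 57.8 and 27.9 in the KO-labelled libraries, without overlap but with replicate 2 next to the WT libraries (log2 fold change 1.53, standard error 0.89, unadjusted p = 0.142 from limma). Ryr1 and Ryr2 stayed at 6.42 to 51.4 normalized counts, with overlapping labels.

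Of the 5 store-operated entry genes, none separated the labels. Orai3 (chr7:127769815-127775150, plus strand), the ORAI gene with the highest mean FPKM, had 655 and 784 normalized counts in WT against 784 and 382 in the KO-labelled libraries. Orai1, the pore of the classical store-operated current, had 711 and 624 in WT against 628 and 600 in the KO-labelled libraries, and Orai2 had 1082 and 1208 against 1125 and 1341. The log2 fold changes of Orai1 and Orai2, -0.12 and 0.10, were under their standard errors of 0.30 and 0.29. The sensors Stim1 and Stim2 went opposite ways in labelled KO replicate 2. Stim1, the sensor that responds to deep store depletion, had 1800 and 1584 normalized counts in WT, 2041 in labelled KO replicate 1 and 736 in replicate 2. Stim2, which responds to smaller losses and keeps basal Ca2+, had 607 and 654 in WT, 455 in labelled KO replicate 1 and 941 in labelled KO replicate 2. Stim1 therefore made up 59.5%, 54.5% and 69.0% of STIM FPKM in those 3 libraries and 27.9% in labelled KO replicate 2.

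Among the TRP, stretch and polycystin channels, Pkd2 (chr5:104459450-104505819, plus strand), the polycystin-2 channel of cilia and endoplasmic reticulum, had the highest mean FPKM. It had 5893 and 4793 normalized counts in WT against 4420 and 4315 in the KO-labelled libraries, lower without overlap but by a log2 fold change of -0.28 (standard error 0.29). Piezo1 had 1820 and 2166 in WT, 2119 in labelled KO replicate 1 and 5805 in labelled KO replicate 2. In that last library Piezo1 was above Pkd2 (28.9 against 21.0 FPKM). Trpc1, a subunit of receptor-activated channels, had 395 and 238 in WT against 181 and 427 in the KO-labelled libraries. Trpv4, an osmotically and heat gated channel of astrocyte endfeet, had 20.7 to 32.1 normalized counts. Trpc6, which opens with diacylglycerol, had at most 4.60, and only in WT replicate 2 was it above the floor of 3 reads.

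Upstream, Gna11 (chr10:81528724-81545190, minus strand), the G11 alpha subunit, had 2105 and 2435 normalized counts in WT against 2668 and 2915 in the KO-labelled libraries. Both KO-labelled libraries were higher, with a log2 difference between the labels of 0.30 (standard error 0.28, unadjusted p = 0.323 from limma). Gnaq, its close relative, had 3383 and 2458 in WT against 2056 and 5286 in the KO-labelled libraries, which lay on either side of WT. The phospholipase C beta genes among the 37, Plcb1 and Plcb4, overlapped between the labels. Plcb1 had 253 and 80.9 normalized counts in WT against 123 and 242 in the KO-labelled libraries. Plcb4 had 544 and 224 in WT against 94.2 and 430 in the KO-labelled libraries. Neither was the main phospholipase C beta of these cultures, since Plcb3 held 80.1% to 96.7% of the family's FPKM in every library.

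The spread within a label was large for these genes. The median absolute log2 difference between the 2 WT libraries was 0.44 over the 36 genes and 0.43 over all genes tested. Between the 2 KO-labelled libraries it was 1.03 over the 36 genes and 0.72 over all genes tested. The KO-labelled libraries differed more than 2-fold from each other in 19 of the 36 genes (52.8%), against 38.3% of all genes tested, and the WT libraries in 9 (25.0%), against 23.7%. Among genes with a mean of at least 50 normalized counts, the share for the KO-labelled libraries was 14 of 27 calcium genes (51.9%) and 28.6% of all genes. Labelled KO replicate 2 was the highest or the lowest library for 27 of the 36 genes (75.0%), against 60.1% of all genes tested. The largest gaps between the KO-labelled libraries, among the 27 genes, were in Itpr3 (log2 difference 3.80, replicate 2 minus replicate 1), Cacna1d (-2.33), Plcb4 (2.18) and Slc8a1 (-1.92). For 30 of the 36 genes (83.3%, against 66.1% of all genes tested) the larger difference within a label exceeded the difference between the label means. The direction of many genes thus rested on 1 library. Of the calcium genes, 3 changed sign without WT replicate 1, 6 without WT replicate 2 and 5 without labelled KO replicate 1. How many of all genes did so was not counted. Without labelled KO replicate 2, 12 changed sign, among them genes near 0 such as Stim2 (log2 fold change 0.05). With that library left out, Mcu was higher and Itpr2 lower at an unadjusted p under 0.05 (limma), against 4.15% of all genes higher and 9.69% lower. Without labelled KO replicate 1, Atp2b1, Cacna2d1 and Piezo1 were higher and Cacna1d, Cacnb3, Orai3, Slc8a1 and Stim1 were lower by the same criterion, while that fit had 8.32% of all genes higher and 13.7% lower.

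**Figure D4:**
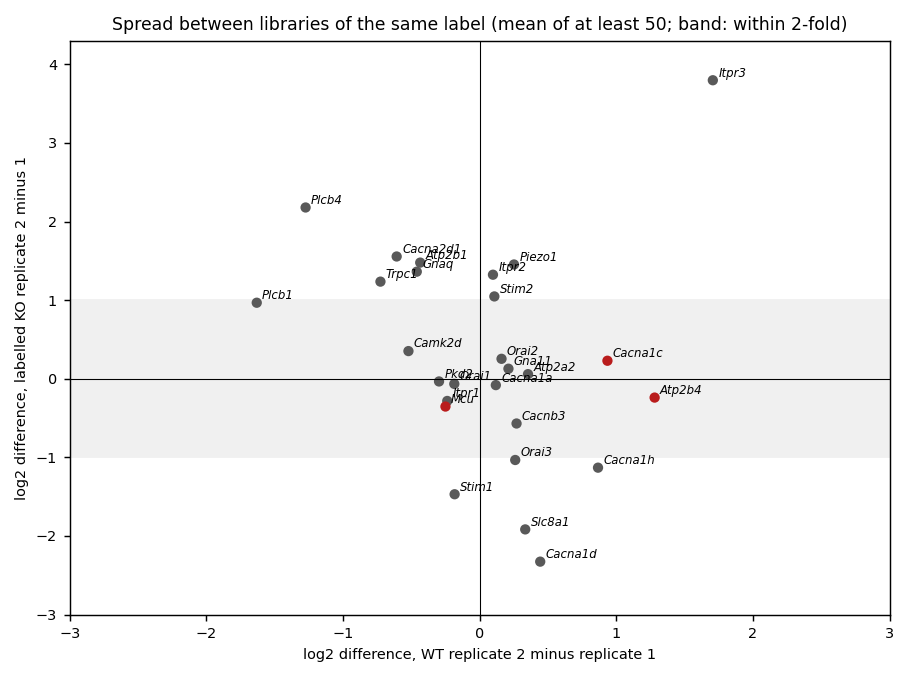
Log2 difference between the 2 WT libraries (x axis) and between the 2 KO-labelled libraries (y axis) for the 27 calcium genes with a mean of at least 50 normalized counts, with red points for an unadjusted p under 0.05 between the labels. Of these genes, 14 lie outside the grey band of 2-fold on the y axis and 4 differ more than 2-fold between the WT libraries.

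The calcium genes are long. Their median span in the genome was 122.6 kb, against 23.2 kb over the 16592 protein-coding genes listed, and 22 of the 37 (59.5%) spanned more than 100 kb, against 14.1%. Another annotated gene overlapped many of these spans, for 25 of the 37 on the opposite strand.

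Other genes of the pathway were taken as 8 companion lists of 143 genes, of which 134 were listed and 127 tested. At an unadjusted p under 0.05 in limma, 8 were higher (6.30%) and 13 lower (10.2%) in the KO-labelled libraries, near the 4.54% and 9.18% of all genes tested, which are also the background for the counts of each list below. By adjusted p, limma called 0 of them at 0.05. DESeq2 gave an adjusted p to 111 and called 2 higher, Casq1 and Adra1d, and 5 lower, Slc24a4, Calb2, Camk2n1, Cacna2d3 and Trpm2, against 1.64% higher and 4.62% lower of all genes. Their median log2 fold change was -0.17, against -0.07 over all genes tested. Some companion genes overlap another protein-coding gene, among them P2rx6 (Slc7a4), P2ry12 (Med12l) and Trpm5 (Tssc4). Reads of such pairs cannot be told apart here.

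Of the ATP receptors, 11 were tested, with 0 higher and 2 lower. P2rx6, an ATP-gated channel subunit, had 369 and 400 normalized counts in WT against 206 and 80.2 in the KO-labelled libraries (log2 fold change -1.57, standard error 0.54). P2ry12, an ADP receptor typical of microglia, had 6.40 and 4.60 in WT and at most 0.901 in the KO-labelled libraries, under the floor of 3 reads. The most abundant ATP receptor was P2ry2, a Gq-coupled receptor, with 897 and 994 normalized counts in WT against 664 and 1971 in the KO-labelled libraries. P2ry1, the Gq-coupled ADP receptor, had 345 and 286 in WT against 514 and 309 in the KO-labelled libraries. Neither P2ry2 nor P2ry1 separated the labels. P2ry6, a Gq-coupled receptor for UDP, had 111 and 207 in WT against 18.2 and 82.0 in the KO-labelled libraries, lower without overlap, at an unadjusted p of 0.0641 in limma and 0.0484 in DESeq2.

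Of 16 other Gq-coupled receptors tested, 2 were higher and 0 lower. Adra1d, an alpha1 receptor for noradrenaline, had 98.2 and 190 normalized counts in WT against 416 and 895 in the KO-labelled libraries (log2 fold change 2.15, standard error 0.55). F2r, the thrombin receptor PAR1, had 2179 and 3092 in WT against 4356 and 11351 in the KO-labelled libraries (log2 fold change 1.44, standard error 0.52). Both KO-labelled libraries were above WT for each, with replicate 2 the higher. F2r had the highest mean FPKM of these receptors through labelled KO replicate 2, and Ednrb, the endothelin B receptor, was above it in the other 3 libraries. Of 12 other phospholipase C and G alpha q genes, 0 were higher and 3 lower. Plcb3, one of the beta isoforms that answer to Gq, had 2961 and 4084 normalized counts in WT against 1988 and 1175 in the KO-labelled libraries (log2 fold change -1.19, standard error 0.38). The delta and eta isoforms Plcd3 and Plch1 were at -1.23 and -1.04 on the same log2 scale. The labels did not overlap in any of the 3.

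Of 10 other voltage-gated subunits tested, 0 were higher and 1 lower, Cacna2d3, an alpha2delta subunit with 208 and 384 normalized counts in WT against 82.4 and 15.3 in the KO-labelled libraries. Of 18 other TRP and stretch channels, Trpm5, a channel of taste cells, was higher and Trpm2, Trpv2 and Trpv3 were lower, all of them at or under 97.3 normalized counts in every library. Trpm2, a channel opened by ADP-ribose and oxidative stress, had 11.7 and 45.1 normalized counts in WT against 0 and 0.901 in the KO-labelled libraries. Trpv2 had 51.2 and 57.0 in WT against 11.8 and 17.1 in the KO-labelled libraries.

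Of 20 other store and pump genes tested, 1 was higher and 2 lower. Casq1, calsequestrin, which buffers Ca2+ inside the store of muscle, had 329 and 442 normalized counts in WT against 3692 and 1513 in the KO-labelled libraries, with a log2 difference between the labels of 2.63 (standard error 0.50, unadjusted p = 0.00254, adjusted p = 0.167 from limma and 0.000181 from DESeq2). This was the lowest unadjusted p among the companion genes. Slc24a4, a potassium-dependent sodium-calcium exchanger, had 643 and 903 in WT against 103 and 9.01 in the KO-labelled libraries (log2 fold change -4.57, standard error 1.10). Jph4, a junctophilin that ties the store to the plasma membrane, was at -1.51 on the log2 scale. The abundant store buffer Calr had 9159 and 12674 normalized counts in WT against 14384 and 17294 in the KO-labelled libraries (unadjusted p = 0.160 from limma).

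Of 10 other mitochondrial calcium genes tested, Vdac2, an outer membrane channel, was higher, with 2154 and 2575 normalized counts in WT against 3910 and 3857 in the KO-labelled libraries (log2 fold change 0.72, standard error 0.28). Of 30 genes for calmodulin, its kinases, calcineurin and other Ca2+ binding proteins, 3 were higher and 2 lower. The kinase genes Camk1d and Camk2g and the CaMKII inhibitor gene Camk2n2 were higher by 0.81, 0.72 and 1.22 on the log2 scale. Camk2n1, the other CaMKII inhibitor gene, was lower, with 2252 and 1625 normalized counts in WT against 818 and 525 in the KO-labelled libraries (log2 fold change -1.54, standard error 0.36). Calb2, which encodes the neuronal buffer calretinin, had 9.60 and 84.6 in WT and 0 in both KO-labelled libraries. The most abundant of the 30, Calm3, had 13664 and 18781 in WT against 22076 and 12384 in the KO-labelled libraries, on both sides of the WT values. Gria1, which encodes the Ca2+-relevant AMPA receptor subunit GluA1, had 897 and 1803 normalized counts in WT against 240 and 10.8 in the KO-labelled libraries.

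**Figure D5:**
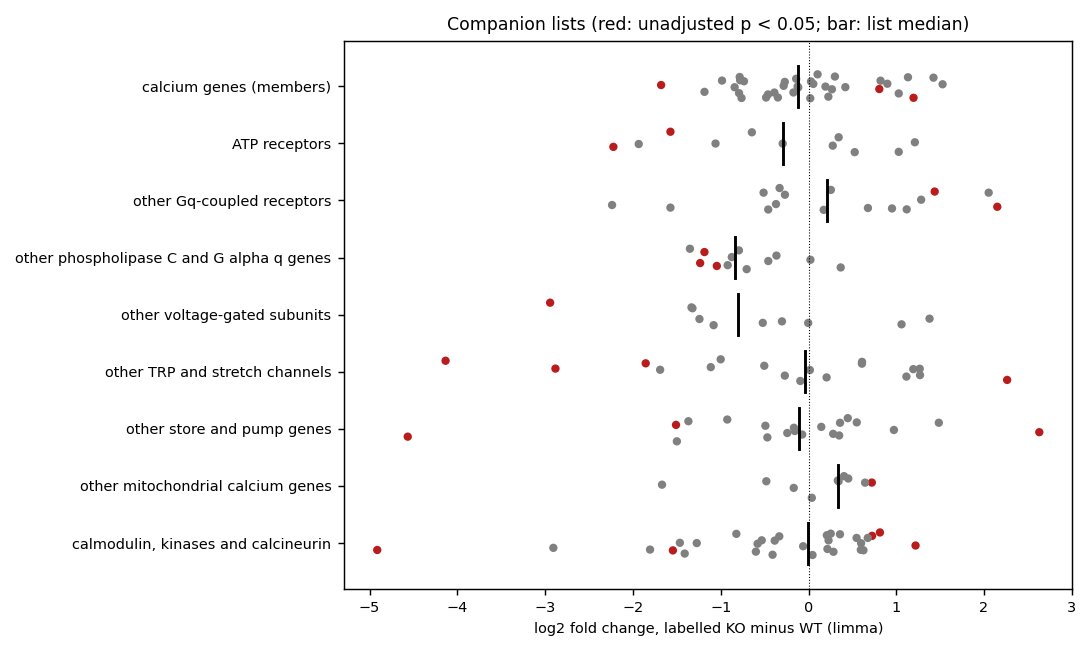
Log2 fold change, labelled KO minus WT, of the 36 calcium genes tested and of the genes of 8 companion lists, 1 point per gene, with black bars for list medians and red points for an unadjusted p under 0.05 in limma. The medians of the lists lie between -0.83, for other phospholipase C and G alpha q genes, and 0.34, for other mitochondrial calcium genes.

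RNA levels of cell type markers differed between the labels, and in bulk samples fewer cells of a type and less RNA per cell cannot be told apart. Of 10 microglial markers, 8 were lower in the KO-labelled libraries at an unadjusted p under 0.05 (limma). Their normalized counts summed to 1071 and 2409 in WT against 181 and 200 in the KO-labelled libraries, and the most abundant by FPKM, C1qa, had 268 and 442 against 33.2 and 5.41. P2ry12, also an ATP receptor, was the microglial marker with 0 reads in a library. All 6 markers of dividing cells were higher, with sums of 210 and 1099 in WT against 2600 and 5613 in the KO-labelled libraries, and Top2a, the most abundant, had 88.6 and 442 against 818 and 2405. Of 8 mural and smooth muscle markers, Acta2, the most abundant, was higher (1980 and 8903 in WT, 22252 and 50185 in the KO-labelled libraries) and Rgs5 was lower. The defining smooth muscle gene Myh11 had 10.8 to 30.3 normalized counts. Their part in the values of Cacna1c, Mcu, Casq1 and Atp2b4 was not tested.

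Of 10 astrocyte markers, Slc1a2 and Sox9 were lower and 0 were higher at an unadjusted p under 0.05 (limma). The log2 fold change was below 0 for 8 of the 10, with a median of -0.63, and both KO-labelled libraries lay below both WT libraries for 5 and above for 1, against 25.4% and 22.5% of all genes tested. Slc1a2, the glutamate transporter GLT-1, had 11394 and 5793 normalized counts in WT against 3078 and 597 in the KO-labelled libraries. Summed over the 10 genes, astrocyte markers had 157902 and 157126 normalized counts in WT against 259251 and 46837 in the KO-labelled libraries, but Gfap carried the high sum of labelled KO replicate 1. Without Gfap the sums were 99898 and 89830 in WT against 84398 and 36892 in the KO-labelled libraries, both below WT. Aldh1l1, which defines astrocytes, had 4452 in labelled KO replicate 1 and 2490 in replicate 2, against 4725 and 5999 in WT. Of 9 neuronal markers tested, Tubb3 and Dcx were higher and Gad1 lower, and 7 had a log2 fold change above 0, 5 of them without overlap (22.5% of all genes tested), with a median of 1.25. Their sums, in which Stmn2 was the most abundant by FPKM, were 4579 and 4072 in WT against 4931 and 4910 in the KO-labelled libraries. The mature neuron marker Snap25 had at most 2.70 normalized counts and was at 0 in both WT libraries.

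Of 8 oligodendrocyte lineage markers, Cspg4 was lower. Sox10 was at 0 in WT replicate 1 and Mog in labelled KO replicate 1, the sums were 7314 and 11542 in WT against 18307 and 10897 in the KO-labelled libraries, and Olig1 was the most abundant. Of 7 meningeal fibroblast markers, Col1a2, the most abundant, was higher and Dcn lower, with sums of 929 and 2313 against 2204 and 2065. Slc6a13 was at 0 in both KO-labelled libraries and Lum in replicate 1. Of 5 endothelial markers tested, 0 passed an unadjusted p under 0.05. Their sums were 285 and 280 in the KO-labelled libraries against 190 or less in WT, with Kdr the most abundant and Cdh5 at 0 in WT replicate 1.

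Sex-linked genes also differed between the labels. Xist, expressed from the inactive X chromosome, had 8.54 and 0.920 normalized counts in WT against 2896 and 13367 in the KO-labelled libraries. Summed over 4 Y-linked genes, the counts were 3765 and 1909 in WT against 0 and 830 in the KO-labelled libraries. With 2 libraries per label, these differences and the label cannot be told apart for any gene given above.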

How the data were processed

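RNA-seq libraries of primary mouse astrocytes were grouped by the genotype and replicate number in their labels. The authors aligned filtered paired-end reads to mm10, and the counting program and annotation release are not given in the sources used here. The deposited signal of each gene, under a name that speaks of FPKM, is a read count divided by a size factor. All values (100%) were whole multiples of 1 read, within 0.01 of a read, so whole reads were recovered. The other deposited columns hold identifiers, gene length and position, genotype means, and the authors' log2 fold changes and p-values. Results of the authors' own comparison were not used. The planned test, written for a normalized unit, was kept.

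limma 3.58.1 in R 4.3.3 compared the labels (lmFit, then eBayes with a trend) after log2(normalized count + 1), which shrinks differences of low genes. Genes with a mean below 1 were left out, and the remaining 22094 shared the Benjamini-Hochberg adjustment. The recovered reads were also given to edgeR 4.0.16 (quasi-likelihood) and DESeq2 1.42.0. The steps were run on simulated data whose changed genes had larger fold changes than any calcium gene had in limma with all libraries. Smaller changes were not simulated. FPKM used the recovered reads, the table's gene lengths and each library's total. Positions and overlaps came from GENCODE M21 on GRCm38, and promoter sequences from RefSeq. Figures were drawn with matplotlib 3.10.9.

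Named with values in each library were the calcium genes with an unadjusted p under 0.05 in limma or an adjusted p under 0.05 in DESeq2, and the gene with the highest mean FPKM of each role. Companion genes with an unadjusted p under 0.05, and the most abundant and defining genes of cell type lists, were also named. Others with values, and the 9 genes plotted by library, were chosen after their values were seen. The members and lists were chosen with earlier results of these data known.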

Additional observations from a re-analysis of the deposited data

How the results depend on the processing

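The median log2 fold change of the calcium genes changed sign, from -0.12 to 0.06 under quantile normalization, 0.08 without labelled KO replicate 1 and 0.03 without replicate 2, staying near 0. The number of calcium genes higher at an unadjusted p under 0.05 was 2, and became 1 under equal sums, 0 without a variance trend, 1 in edgeR (Cacna2d1) and 3 under quantile normalization (Cacna1c, Cacna2d1 and Mcu), with a range of 0 to 3 when 1 library was left out. The number lower was 1, became 2 under equal sums (Atp2b4 and Cacnb3), and ranged from 0 to 5 when 1 library was left out. Over all genes, 1029 to 4925 had an unadjusted p under 0.05 with 1 library left out, against 3032. After adjustment, DESeq2 called 1088 genes and the other settings 0. Quantile normalization moved the median of all genes from -0.07 to 0.08 and the split from 1004 higher and 2028 lower to 1417 and 1490. The calcium genes without overlap between the labels numbered 10, and 10 to 12 under the other filters and scalings, against 47.9% of all genes and 44.7% to 50.5%; the alternatives that keep the values or leave 1 library in a label were not run for this count. With 1 library left in a label, that library is assumed to vary like the others. The labels share replicate numbers, and deviations of same-numbered libraries had a correlation of -0.08 over all genes tested. With 2 libraries per label, that value cannot show whether same-numbered libraries shared a preparation. With the replicate block, 2583 genes had an unadjusted p under 0.05, and 0 calcium genes were higher and 1 lower. Few reads were counted for Trpc6, Slc8a3 and Ryr1, at most 5, 16 and 13 in any library. Whether depth or the spread between 2 libraries limited a gene was not tested.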
